A study of Canis lupus familiaris with 24 samples.

Results

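The fibrillar collagens described here are 7 genes listed by symbol, COL1A1, COL1A2, COL3A1, COL5A1, COL5A2, COL11A1 and COL27A1, found in a dog gene count table of 32704 genes. Of these 7 genes, 6 passed the low-count filter that left 12466 genes for testing. COL11A1 did not pass, with 2 counts in all 24 libraries together. RNA came from 2 sublines of MDCK, a dog kidney epithelial line, named MDCK-NBL2 and MDCK-II. In MDCK-NBL2 the groups were TGFb at day 4 with an siRNA against the transcription factor PRRX1 (siPRRX1), TGFb at day 4 with a control siRNA (siCTR), TGFb alone at day 4, untreated at day 4 and untreated at day 0. In MDCK-II they were TGFb at day 4, untreated at day 4 and untreated at day 0. Each of the 8 groups had 3 libraries. The labels call untreated cells epithelial, TGFb-treated MDCK-II cells and siPRRX1 cells partial EMT (epithelial-mesenchymal transition), and TGFb-treated MDCK-NBL2 cells and siCTR cells full EMT. Both siRNA groups received TGFb, so neither is an untreated group.

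Fibrillar collagens are made as procollagen chains that wind into triple helices, are secreted, lose their end pieces and assemble into the striated fibrils of connective tissue. COL1A1 and COL1A2 encode the chains of type I collagen, COL3A1 the single chain of type III, and COL5A1 and COL5A2 chains of type V, which starts type I fibrils and limits their width. COL11A1 belongs to type XI, best known from cartilage, and COL27A1 encodes the chain of type XXVII, also described in cartilage. In kidney these genes are chiefly products of interstitial fibroblasts, and TGFb is a well-known inducer of fibrillar collagen there and of EMT in epithelial cultures.

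Total counts ran from 6134929 to 27567296 per library. Levels are counts per 1000000 (CPM) on scaled library sizes. They are not divided by gene length, so each gene is compared with itself across libraries and not with another gene. All 5 epithelial markers found in the table were above 1 CPM on average in every group. The library labelled untreated MDCK-NBL2 day 4 replicate 2 stood apart: its log expression correlated at 0.929 and 0.910 with the other libraries of its own group, and at 0.947 to 0.966 with the TGFb-treated MDCK-NBL2 libraries. Results that rest on it are given with and without it. Day 0 MDCK-NBL2 replicate 1 held counts of 45 genes typical of MDCK-II, at 9.48% (median) of the mean in that subline, while replicates 2 and 3 had 0.307% and 0.465%. The labels number the replicates without saying whether they were separate cultures, so a p-value here covers library-to-library spread, which may be technical.

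In MDCK-NBL2 cells, both type I chains, the type III chain, both type V chains and COL27A1 were higher in each TGFb-treated library than in any untreated library of day 4. The share of all tested genes with this arrangement was not counted. By edgeR's quasi-likelihood test with Benjamini-Hochberg adjustment over all genes, 5 of the 6 tested members rose and none fell, in a comparison where 21% of all tested genes rose. Without the library that stood apart, all 6 tested members rose, and 27.1% of tested genes did. When the 6 libraries compared were fitted alone, untreated replicate 2 included, COL3A1 was the 1 member called (adjusted p = 0.0436), and the others lay between adjusted p = 0.0601 (COL1A2) and 0.39 (COL1A1); in that fit 2.06% of all tested genes rose. In bulk RNA, a change in the number of cells that express a gene and a change in RNA per cell cannot be told apart.

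COL1A1 had 2105, 2147 and 1062 CPM in TGFb-treated MDCK-NBL2 libraries, against 0, 596 and 0 CPM in untreated day 4 libraries. Of these untreated day 4 libraries, only the one that stood apart had any COL1A1 count, and it lay below all treated libraries. With it, the difference did not pass, at a log2 fold change of 3.15 ± 1.52 (SE; adjusted p = 0.101). Without it, COL1A1 had 35669 counts in treated libraries and 0 in the remaining untreated libraries, at least 19746-fold higher with the untreated group set to the floor of 3 counts (adjusted p = 4.5e-08). COL1A2 had 2815, 1383 and 1025 CPM with TGFb, against 15, 232 and 32.4 CPM untreated. Its transcript was thus counted in every untreated MDCK-NBL2 library, unlike that of its type I partner. It rose by a log2 fold change of 4.22 ± 0.94 (adjusted p = 0.00287), or 6.23 ± 0.85 (adjusted p = 3.42e-05) without the library that stood apart.

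COL3A1 had 104, 6.33 and 12.0 CPM with TGFb, against 0.122, 0 and 0 CPM untreated. All treated libraries were above all untreated ones, and the treated libraries were themselves unequal, with replicate 1 far above the others. Counts were 676 against 3, a ratio of 678 with an exact 95% counting interval of 231 to 3295, and the difference passed (adjusted p = 0.00271). Without the library that stood apart the ratio was 374, with an interval of 128 to 1819 (adjusted p = 0.00805). Without TGFb replicate 1 the log2 fold change was 7.30 (adjusted p = 0.0123), and without untreated replicate 1 no untreated count was left (adjusted p = 0.0181). COL3A1 was the single tested member at 0 in that library, which held the other tested members at 13.3% (COL1A2) to 81.4% (COL5A2) of their treated means.

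COL5A1 had 1242, 1038 and 949.6 CPM with TGFb, against 255, 621 and 148 CPM untreated. It rose by a log2 fold change of 1.65 ± 0.36 (adjusted p = 0.00115), or 2.41 ± 0.29 (adjusted p = 1.23e-06) without the library that stood apart. COL5A2, the other type V chain, had 4321, 4700.0 and 4250.4 CPM with TGFb, against 1249, 3600.0 and 2097 CPM untreated. The highest untreated library lay below the lowest treated one, and the rise was 0.93 ± 0.27 (adjusted p = 0.00825), or 1.40 ± 0.23 (adjusted p = 4.39e-05) without that library. COL27A1 had 6.91, 4.99 and 4.81 CPM with TGFb, against 1.10, 3.77 and 0.115 CPM untreated. The groups did not overlap, and it rose by 1.61 ± 0.55 (adjusted p = 0.0235), or 2.89 ± 0.52 (adjusted p = 0.000116) without the library that stood apart. Its call was lost without TGFb replicate 1 (adjusted p = 0.0769) or without untreated replicate 1 (adjusted p = 0.093). COL11A1 had 1 count in a TGFb-treated library, 1 in an siCTR library and 0 elsewhere, which is under the floor of 3 counts.

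**Figure D1:**
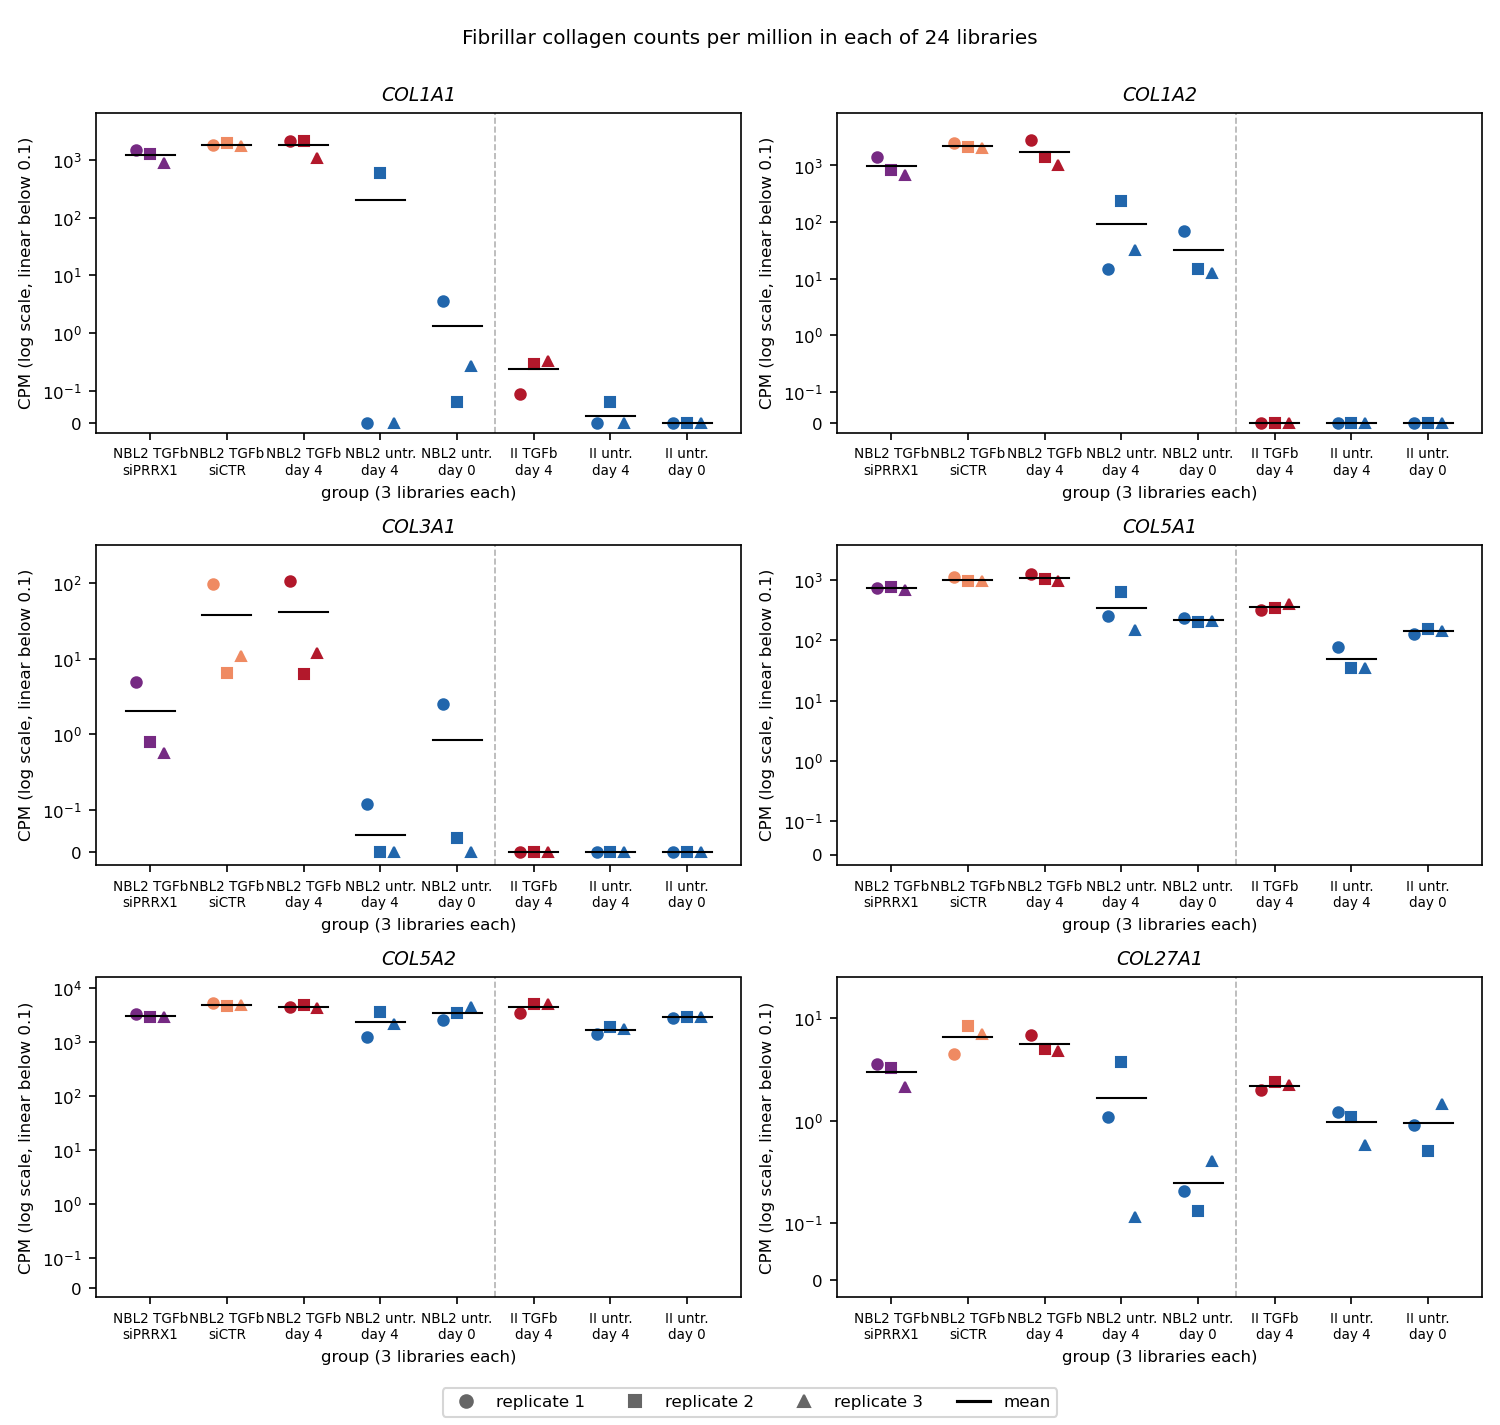
CPM of the 6 tested fibrillar collagens (log axis, linear below 0.1) in each of 24 libraries, by group, with points for replicates 1 to 3 and a line for the mean. MDCK-II groups (II) stand right of the dashed line, where COL1A2 and COL3A1 lie at 0, and the untreated day 4 MDCK-NBL2 library with 596 CPM of COL1A1 is the square above its group.

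Of the 6 fibroblast markers, 2 averaged above 1 CPM in treated MDCK-NBL2 libraries, with summed levels of 9.62 to 23.6 CPM, against 2.52 to 29.2 CPM in untreated ones. PDGFRB, DPT and FAP had no count in treated libraries, and epithelial markers summed to 3125 to 3552 CPM there, against 4052 to 7297 CPM in untreated ones. The part of other cell types in the collagen result was not tested.

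Against untreated MDCK-NBL2 cells at day 0, 5 of 6 tested members rose with TGFb at day 4, where 31.2% of tested genes rose. This comparison also differs in time in culture, and shares the treated libraries with the one above. COL1A1, at 1062 to 2147 CPM with TGFb, had 3.67, 0.0661 and 0.269 CPM at day 0. COL1A2, at 1025 to 2815 CPM with TGFb, had 68.3, 14.6 and 12.4 CPM at day 0. The highest day 0 values of both type I chains were in replicate 1, the library that carried MDCK-II genes. MDCK-II libraries held no COL1A2 count, and the source of the high values in replicate 1 was not tested. COL1A1 was higher with TGFb by a log2 fold change of 10.41 ± 2.18 (adjusted p = 0.000684), or 13.87 without day 0 replicate 1 and 9.62 without day 0 replicate 2. COL1A2 was higher by 5.77 ± 1.02 (adjusted p = 0.000336), or 7.0 without day 0 replicate 1.

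COL3A1, at 6.33 to 104 CPM with TGFb, had 2.49, 0.0331 and 0 CPM at day 0, with 36 of its 37 counts in replicate 1. It was higher with TGFb by 5.61 ± 1.54 (adjusted p = 0.00695), a call lost without TGFb replicate 1 (3.44, adjusted p = 0.0595) and kept without day 0 replicate 2 (4.77, adjusted p = 0.0317). Without day 0 replicate 1 a single day 0 count was left, and the count ratio was 1268 (exact interval 227 to 50175, adjusted p = 0.00433). COL5A1, at 949.6 to 1242 CPM with TGFb against 229, 201 and 209 CPM at day 0, was higher by 2.34 ± 0.36 (adjusted p = 3.84e-05). Its groups stood well apart, as did those of COL27A1. COL27A1, at 4.81 to 6.91 CPM with TGFb against 0.208, 0.132 and 0.404 CPM at day 0, was higher by 4.70 ± 0.73 (adjusted p = 3.68e-05). COL5A2 was the member that did not pass: it had 4250.4 to 4700.0 CPM with TGFb, against 2574, 3409 and 4383 CPM at day 0, so that the groups overlapped, with a difference of 0.36 ± 0.26 (adjusted p = 0.257).

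In MDCK-II cells, the type V chains rose with TGFb, while type I and type III transcripts were at or near 0. Of 6 tested members, 2 rose and none fell, against 11.8% of all tested genes that rose. COL5A1 had 311, 339.8 and 401 CPM with TGFb, against 78.2, 35.0 and 35.1 CPM in untreated day 4 libraries. That is a 7.09-fold rise (log2 fold change 2.83 ± 0.37, adjusted p = 9.18e-05), with all treated libraries above all untreated ones. COL5A2 had 3435, 4919 and 4915 CPM with TGFb, against 1364, 1899 and 1749.7 CPM untreated, and rose 2.65-fold (1.40 ± 0.27, adjusted p = 0.00164).

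COL27A1 had 1.99, 2.37 and 2.23 CPM in TGFb-treated MDCK-II libraries, against 1.22, 1.09 and 0.577 CPM untreated. The groups did not overlap, but the difference of 1.13 ± 0.59 did not pass (adjusted p = 0.174). It did pass in a fit of these groups alone, without replicate numbers as a block (1.15, adjusted p = 0.0448) and with them (1.17, adjusted p = 0.0485). COL1A1 had 12 counts with TGFb (0.0903, 0.292 and 0.335 CPM) and 2 untreated (0, 0.0662 and 0 CPM), a ratio of 6.68 (exact counting interval 1.49 to 61.4), and did not pass (adjusted p = 0.763). No count of COL1A2 or COL3A1 was found in any of the 9 MDCK-II libraries, which allows up to 0.0202 CPM over all of them. Fibroblast markers summed to 13.4 to 48.0 CPM in treated MDCK-II libraries, against 0.808 to 7.42 CPM untreated. Of these 6 markers, 1 averaged above 1 CPM, PDGFRA, and DPT, FAP and LUM had no count in treated MDCK-II libraries. The part of such cells in the rise of the type V chains was not tested.

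The TGFb response was set against the response of the other subline in an interaction test. No member passed (5.7% of tested genes did, in either direction, and 21.1% without the library that stood apart). The difference for COL5A1 was -1.17 ± 0.49 on the log2 scale, a smaller rise in MDCK-NBL2 (adjusted p = 0.162), and -0.41 ± 0.35 without that library. It passed without untreated MDCK-II replicate 1 (-1.67, adjusted p = 0.0383) and without untreated MDCK-NBL2 replicate 3 (-1.53, adjusted p = 0.0258). For COL5A2 it was -0.47 ± 0.37 (adjusted p = 0.496), and for COL27A1 0.47 ± 0.81 (adjusted p = 0.79), or 1.76 ± 0.67 (adjusted p = 0.0686) without the library that stood apart. With no MDCK-II count, no difference in response could be estimated for COL1A2 and COL3A1. For COL1A1, near 0 in MDCK-II, it was 0.66 ± 10.65 (adjusted p = 0.993), too uncertain to show whether the responses differ.

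**Figure D2:**
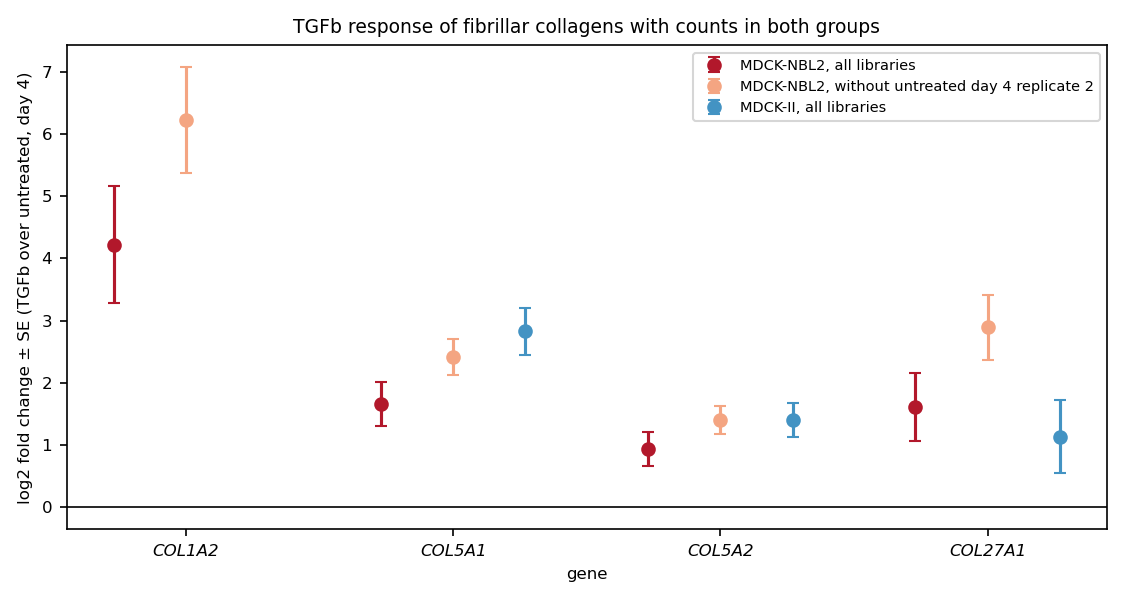
Log2 fold change (TGFb over untreated, day 4) with its SE for members counted in both groups, in MDCK-NBL2 with all libraries, in MDCK-NBL2 without untreated replicate 2, and in MDCK-II. COL1A1 and COL3A1 are left out because an untreated group was at or near 0 counts, and COL1A2 has no MDCK-II point because it had no count there.

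Between the sublines under TGFb, the type I and type III chains separated MDCK-NBL2 from MDCK-II. Of 6 tested members, 4 were higher in MDCK-NBL2, against 23.7% of tested genes. COL1A1 was higher by a log2 fold change of 12.74 ± 2.49 (adjusted p = 0.000553). COL1A2 was at least 25866-fold higher (32845 counts against 0, adjusted p = 9.63e-06) and COL3A1 at least 532-fold higher (676 counts against 0, adjusted p = 0.00252; 0.0107 without TGFb-treated MDCK-NBL2 replicate 1). COL5A1 was higher by 1.62 ± 0.36 (adjusted p = 0.00114). COL5A2 averaged 4424 CPM in treated MDCK-NBL2 libraries and 4423 CPM in treated MDCK-II libraries, a difference of 0.00 ± 0.26. COL27A1 was 1.32 ± 0.56 higher and did not pass (adjusted p = 0.0584), but did without the library that stood apart (adjusted p = 0.0118).

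Before treatment, at day 0, COL1A2 differed between the sublines: 1519 counts in MDCK-NBL2 libraries against 0 in MDCK-II libraries, at least 469-fold higher (adjusted p = 0.000571), or at least 228-fold without day 0 replicate 1 (adjusted p = 0.0014). It was the 1 of 6 tested members called higher in MDCK-NBL2, in a comparison where 14.8% of tested genes were. COL1A1 had 57 counts against 0 and COL3A1 37 against 0, of which 53 and 36 were in replicate 1, and neither passed (adjusted p = 0.323 for COL1A1 and 0.273 for COL3A1). COL1A1 did pass without the day 4 library that stood apart (7.15, adjusted p = 0.0144), where 17% of tested genes were higher. It also passed by the DESeq2 Wald test (adjusted p = 2.69e-17), at a log2 fold change of 21.27 that 0 counts in MDCK-II leave undetermined. COL3A1 passed by the Wald test (6.07, adjusted p = 0.0447) and with replicate numbers as a block over all libraries (6.30, adjusted p = 0.00108). Without day 0 replicate 1 neither passed in edgeR's test (adjusted p = 0.801 for COL1A1 and 0.864 for COL3A1). COL27A1 ran lower in MDCK-NBL2, with 0.208, 0.132 and 0.404 CPM against 0.897, 0.511 and 1.44 CPM in MDCK-II libraries. The difference of -2.05 ± 0.79 did not pass (adjusted p = 0.058). It passed without the day 4 library that stood apart (adjusted p = 0.0125) and by the DESeq2 Wald test (adjusted p = 0.0216). COL5A1 had 229, 201 and 209 CPM in MDCK-NBL2, against 127, 153 and 142 CPM in MDCK-II. Its groups did not overlap, and the difference of 0.60 ± 0.35 did not pass (adjusted p = 0.222). In a fit of the day 0 libraries alone it did, at 0.65 (adjusted p = 0.000908; 0.00358 with replicate numbers as a block), where 22.6% of tested genes were higher without the block. COL5A2 differed by 0.30 ± 0.26 (adjusted p = 0.446).

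In untreated MDCK-II cells COL5A1 fell over time in culture. It had 78.2, 35.0 and 35.1 CPM at day 4, against 127, 153 and 142 CPM at day 0, a log2 fold change of -1.51 ± 0.36 (adjusted p = 0.0119). It was the 1 member called lower, where 4.05% of tested genes fell, and the call was lost without day 4 replicate 3 (adjusted p = 0.0521). COL5A2 had 1364, 1899 and 1749.7 CPM at day 4, against 2712, 2858 and 2860.1 CPM at day 0. These groups did not overlap either, with a difference of -0.75 ± 0.27 (adjusted p = 0.0765; 0.0148 without the MDCK-NBL2 library that stood apart, since all groups share an estimate of spread). In MDCK-NBL2, 2 of 6 tested members were called higher at day 4 than at day 0, COL1A1 (7.26, adjusted p = 0.021) and COL27A1 (3.09, adjusted p = 0.0108), where 12.4% of tested genes rose. Both calls rested on untreated day 4 replicate 2, and were also lost without day 0 replicate 2 (adjusted p = 0.0857 for COL1A1 and 0.0711 for COL27A1), the first without day 0 replicate 3 as well (adjusted p = 0.0708). Without it, COL1A1 had 0 counts at day 4 against 57 at day 0, at least 12.2-fold lower and not past the threshold (adjusted p = 0.0592), and COL27A1 did not pass (1.82, adjusted p = 0.0646). COL5A2 was then called lower at day 4 (-1.05 ± 0.23, adjusted p = 0.00749), as were 5.1% of tested genes.

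The knockdown groups ask how the members stand when PRRX1 is silenced during TGFb treatment. PRRX1 itself had 1.11, 0.339 and 0 CPM in siPRRX1 libraries, against 33.9, 7.35 and 3.88 CPM in siCTR libraries (log2 fold change -4.64 ± 1.17, adjusted p = 0.0435). Every tested member was lower in each siPRRX1 library than in any siCTR library, an arrangement found in this direction for 16.4% of tested genes. In the fit of all libraries without a block, 0 of 6 members passed, and 2% of tested genes did. At an unadjusted p under 0.05 in edgeR's test there were 2, COL3A1 and COL5A2, beside 14.9% of tested genes, and the DESeq2 Wald test also called 0 of the members.

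Type I transcripts stayed high with siPRRX1. COL1A1 had 1502, 1246 and 887 CPM in siPRRX1 libraries, against 1766, 1938 and 1758 CPM in siCTR libraries (-0.59 ± 1.41, adjusted p = 0.919). COL1A2 had 1403, 828 and 682 CPM, against 2460.5, 2131 and 2022 CPM with siCTR (-1.18 ± 0.84, adjusted p = 0.572). Both chains remained above every untreated MDCK-NBL2 library. COL3A1, the type III chain, was the farthest down, with 4.84, 0.791 and 0.565 CPM, against 97.5, 6.39 and 10.7 CPM with siCTR (-4.02 ± 1.36, adjusted p = 0.168; -1.85 without siCTR replicate 1 and -5.82 without siPRRX1 replicate 1). Replicate 1 was the highest library in both groups for COL3A1 and for PRRX1.

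The type V chains varied little within each siRNA group. COL5A1 had 723, 749 and 686 CPM with siPRRX1, against 1091, 937 and 936 CPM with siCTR (-0.46 ± 0.35, adjusted p = 0.595). COL5A2 had 3204, 2837 and 2829 CPM, against 5139, 4549 and 4762 CPM with siCTR (-0.70 ± 0.27, adjusted p = 0.202; 0.0426 without the library that stood apart, a setting in which 5.21% of tested genes were called and COL5A2 was the 1 member). COL27A1 had 3.53, 3.28 and 2.12 CPM, against 4.46, 8.31 and 6.96 CPM with siCTR (-1.09 ± 0.54, adjusted p = 0.359).

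Same-numbered siPRRX1 and siCTR libraries deviated together from their group means, while different numbers correlated at 0.049 at most. In both groups replicate 1 came from a different library number series than replicates 2 and 3. It also had more counts, 22172939 (siPRRX1) and 26655390 (siCTR) against 7202327 to 9144704. Replicate number thus went with series and depth, and their part in the shared deviation was not tested. The calls on the members turned both on whether this deviation was modelled and on which libraries were fitted. With replicate numbers as a block over all libraries, COL3A1 alone of the members was called (-4.07 ± 0.39, adjusted p = 0.000383), among 2.11% of tested genes. With the block in a fit of the siPRRX1 and siCTR libraries alone, all 6 members were called lower, among 22.5% of tested genes in either direction. In that fit COL3A1 was at -4.20 ± 0.19 (adjusted p = 3.26e-05), COL1A2 at -1.24 ± 0.13 (adjusted p = 0.000454) and COL5A2 at -0.70 ± 0.09 (adjusted p = 0.000863). COL5A1 was at -0.45 ± 0.08 (adjusted p = 0.00435), COL1A1 at -0.61 ± 0.13 (adjusted p = 0.0104) and COL27A1 at -0.97 ± 0.28 (adjusted p = 0.0361). The log2 fold changes were close to those of the first fit, and the SEs were smaller. Without the block, the fit of these libraries alone called 3 members, COL1A2, COL5A1 and COL5A2 (adjusted p = 0.0192, 0.0197 and 0.00804 in that order), among 10.3% of tested genes. Fibroblast markers summed to 5.76 to 7.91 CPM in siPRRX1 libraries, against 9.71 to 10.5 CPM in siCTR libraries. Of the 6, PDGFRA was above 1 CPM in both groups, PDGFRB, DPT and FAP had no count in either, and their part in the collagen difference was not tested.

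**Figure D3:**
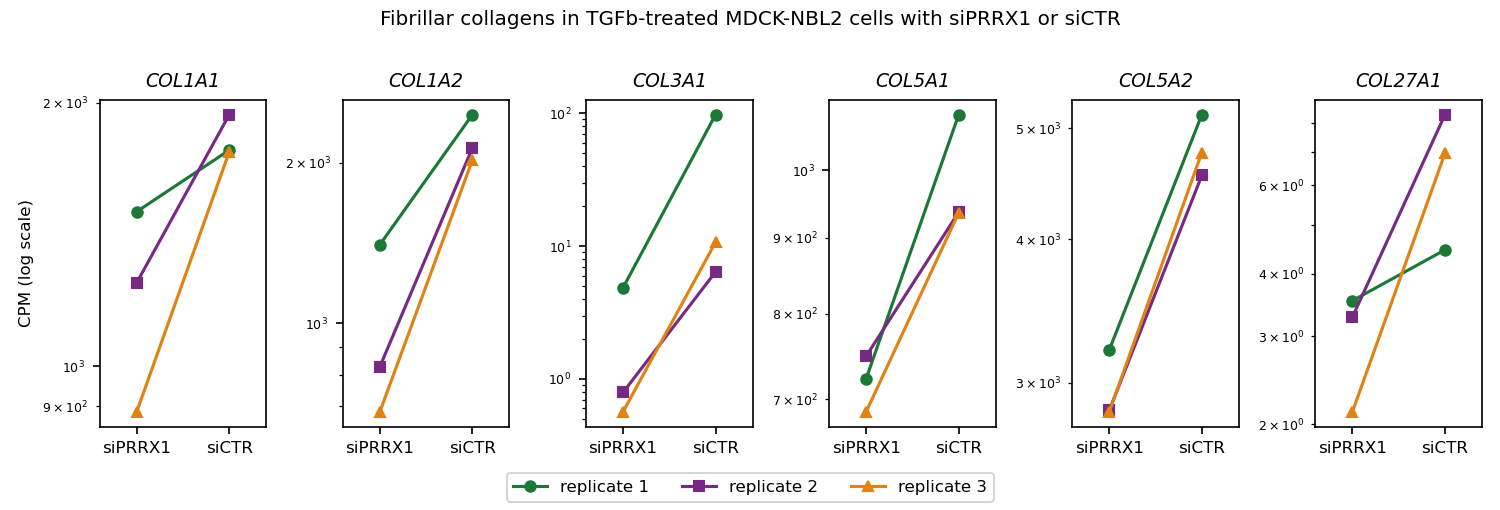
CPM (log axes, a separate scale for each gene) in the 3 siPRRX1 and 3 siCTR libraries of TGFb-treated MDCK-NBL2 cells, with lines that join libraries of the same replicate number. Each line runs lower at siPRRX1, and replicate 1 is highest for COL3A1 in both groups, at 4.84 and 97.5 CPM.

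The members kept different balances across groups. The ratio of COL1A1 to COL1A2 counts was 1.07, 1.50 and 1.3 in siPRRX1 libraries, against 0.718, 0.909 and 0.869 in siCTR libraries, with no overlap. Libraries with TGFb alone had 0.748, 1.55 and 1.04 and spanned both siRNA groups. Day 0 libraries had 0.0538, 0.00454 and 0.0217, and untreated day 4 libraries 0, 2.57 and 0, so that COL1A2 counts came with few or no COL1A1 counts in all untreated MDCK-NBL2 libraries but the one that stood apart. The ratio of COL5A1 to COL5A2 counts was 0.287, 0.221 and 0.223 in TGFb-treated MDCK-NBL2 libraries, against 0.204, 0.173 and 0.0706 in untreated day 4 libraries. In MDCK-II it was 0.0904, 0.0691 and 0.0816 with TGFb, against 0.0573, 0.0184 and 0.0201 untreated. The 7 genes together took 0.900%, 0.809% and 0.654% of counts in TGFb-treated MDCK-NBL2 libraries, against 0.158%, 0.496% and 0.247% in untreated ones, and 0.383%, 0.524% and 0.530% in treated MDCK-II libraries, against 0.163%, 0.216% and 0.193% in untreated ones.

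**Figure D4:**
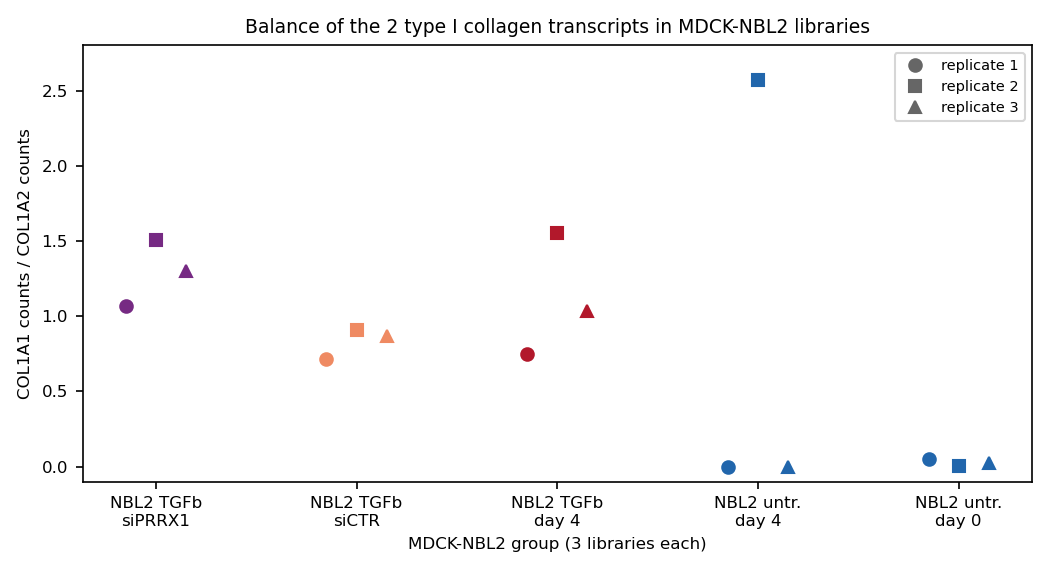
Ratio of COL1A1 to COL1A2 counts in each of the MDCK-NBL2 libraries, by group, with point shapes for replicates 1 to 3. The siPRRX1 libraries lie between 1.07 and 1.50 and the siCTR libraries between 0.718 and 0.909, and the untreated day 4 library at 2.57 is the one that stood apart.

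Ordered by mean level, siCTR and TGFb-alone libraries of MDCK-NBL2 held the top places for all 6 tested members, with overlapping libraries in each case. The siPRRX1 group came next, as the third, for COL1A1, COL1A2, COL3A1, COL5A1 and COL27A1. Its libraries overlapped those of the group above it, TGFb alone, for COL1A1 and COL1A2, and did not overlap the group above it for COL3A1, COL5A1 and COL27A1. For COL5A2 the third place was held by TGFb-treated MDCK-II, and every pair of neighbours in that order overlapped. The lowest place for COL5A1 was untreated MDCK-II at day 4 and for COL27A1 untreated MDCK-NBL2 at day 0, neither of which overlapped the group above it. Over the 24 libraries, which share subline and treatment, log levels of the type I chains correlated with each other at Pearson r = 0.902, and COL1A2 with COL5A2 at 0.410. In the dog assembly UU_Cfam_GSD_1.0, COL3A1 and COL5A2 are adjacent protein-coding genes, and their log levels correlated at 0.487.

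The genes whose log levels tracked each member most closely over the same 24 libraries differed from member to member. They were IGFBP5 (r = 0.985) and LRRN4CL (0.978) for COL1A1, and EDNRA (0.991), LGI3 (0.985) and SIGLEC15 (0.984) for COL1A2. For COL3A1 they were PAPPA (0.956), MS4A14 (0.944) and WDFY3 (0.937), and for COL5A1 ITGAV (0.979), PTGFRN (0.976) and CA12 (0.970). COL5A2 had the loosest company, with CAPNS1 (0.896), PRSS23 (0.894) and IMPDH1 (0.883), and COL27A1 had LIMK2 (0.952), NCK2 (0.944) and CLIC4 (0.941).

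Among the other fibrillar collagens, COL24A1 and COL11A2 rose with TGFb in both sublines, 2 of 4 tested in each. COL24A1, of type XXIV, averaged 6.01 ± 1.98 CPM with TGFb and 0.769 ± 1.01 CPM untreated in MDCK-NBL2 (SD, n = 3 each; adjusted p = 0.00207), a log2 fold change of 2.81, or 5.43 without the library that stood apart. In MDCK-II it averaged 1.80 ± 0.54 CPM with TGFb and 0.0681 ± 0.0663 CPM untreated (adjusted p = 0.00403). COL11A2, the type XI partner of COL11A1, averaged 17.5 ± 7.51 and 4.65 ± 2.5 CPM in MDCK-NBL2 (adjusted p = 0.000584), and 16.5 ± 2.49 and 7.90 ± 2.27 CPM in MDCK-II (adjusted p = 0.0374). In siPRRX1 libraries COL24A1 averaged 6.81 ± 0.39 CPM, against 6.81 ± 0.80 CPM in siCTR libraries, and its libraries overlapped between these groups, unlike those of the 6 tested members. COL5A3, the other type V chain, did not pass with TGFb in either subline (adjusted p = 0.755 in MDCK-NBL2 and 0.178 in MDCK-II) and was lower in MDCK-NBL2 than in MDCK-II under TGFb, at 0.236 ± 0.114 CPM against 2.54 ± 0.31 CPM (adjusted p = 0.000257). COL2A1, the cartilage type II chain, did not pass with TGFb either (adjusted p = 0.753 and 0.593). The list median was 1.10 on the log2 scale in MDCK-NBL2 and 1.23 in MDCK-II, or 1.06 with genes of few counts at their bound. The median of all tested genes was -0.04 in MDCK-NBL2 and -0.03 in MDCK-II.

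The enzymes and chaperones that fold and hydroxylate procollagen rose widely in MDCK-NBL2: 16 of 17 tested rose and 1 fell (median 1.05; the fall was P4HA3, a prolyl 4-hydroxylase subunit, at -0.87 ± 0.35, adjusted p = 0.0492), and 9 of 17 rose and none fell in MDCK-II (median 0.53; 13 rose and 1 fell without the MDCK-NBL2 library that stood apart, a setting in which 16.1% of all tested genes rose in MDCK-II). With all libraries, 21% of all tested genes rose in MDCK-NBL2 and 11.8% in MDCK-II, and these shares apply to every list described. In MDCK-NBL2 the share was 27.1% without the library that stood apart. In the fit of the 6 MDCK-NBL2 libraries alone 2.06% of tested genes rose, and list counts in that fit are not given. MIA3, which loads procollagen for export from the endoplasmic reticulum, averaged 383 ± 52.7 CPM with TGFb and 157 ± 36.2 CPM untreated in MDCK-NBL2 (adjusted p = 5.4e-06). P3H2, a prolyl 3-hydroxylase, rose by 2.46 ± 0.29 in MDCK-NBL2 (adjusted p = 1.25e-05) and 2.17 ± 0.29 in MDCK-II (adjusted p = 9.26e-05). FKBP10, a collagen chaperone, rose by 1.05 ± 0.16 (adjusted p = 7.78e-05) and 0.80 ± 0.16 (adjusted p = 0.00182) in the same order. P4HA2, a prolyl 4-hydroxylase subunit, rose by 1.44 ± 0.17 in MDCK-II (adjusted p = 2.94e-05) and 1.05 ± 0.17 in MDCK-NBL2 (adjusted p = 0.000118). With siPRRX1, 1 of the 17 passed, CRTAP, part of the prolyl 3-hydroxylation complex, at 52.1 ± 5.12 CPM against 74.5 ± 3.77 CPM in siCTR libraries (-0.52 ± 0.10, adjusted p = 0.0102), beside a list median of -0.37. Without the library that stood apart 4 of the 17 were lower, CRTAP, FKBP10, P4HA3 and P4HA2 (adjusted p = 0.00523, 0.00842, 0.0237 and 0.0354 in that order). With replicate numbers as a block in a fit of the siPRRX1 and siCTR libraries alone, 13 of 17 were lower, and without the block 7 were.

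Of the proteinases that trim procollagen and the enzymes that crosslink it, 6 of 10 tested rose in MDCK-NBL2 (median 1.72; 7 without the library that stood apart) and 3 of 10 in MDCK-II (median 0.70; 5 without that library, and 5 of 8 with the replicate block in a fit of the MDCK-II libraries compared), and none fell. LOXL2, a lysyl oxidase that crosslinks fibrils, averaged 235 ± 15.2 CPM with TGFb and 35.5 ± 27.5 CPM untreated in MDCK-NBL2 (adjusted p = 0.00109; log2 fold change 2.71, or 3.31 without the library that stood apart). TLL2, a procollagen C-proteinase relative, and PCOLCE2, an enhancer of that step, rose there by 3.50 ± 0.58 (adjusted p = 0.000154) and 1.49 ± 0.31 (adjusted p = 0.000834), the second by 2.10 without that library. In MDCK-II the genes with the smallest adjusted p were LOXL1 (1.01 ± 0.17, adjusted p = 0.00062), the C-proteinase BMP1 (3.01 ± 0.53, adjusted p = 0.00088) and the N-proteinase ADAMTS2 (2.48 ± 0.82, adjusted p = 0.0374). BMP1 averaged 253 ± 35.2 CPM with TGFb and 31.5 ± 1.96 CPM untreated in these cells, which had no COL1A2 count. BMP1 and ADAMTS2 also rose in MDCK-NBL2, by 2.19 ± 0.51 (adjusted p = 0.002) and 3.74 ± 0.80 (adjusted p = 0.00109). Without the library that stood apart these rises were 3.85 and 7.90. LOXL1 did not pass in MDCK-NBL2 (-0.19 ± 0.17, adjusted p = 0.368).

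Fibril-associated collagens and fibril-binding proteins rose in 7 of 10 tested in MDCK-NBL2 (median 2.26; 11 of 11 without the library that stood apart) and 4 of 10 in MDCK-II (median 2.13, or 2.35 with genes of few counts at their bound; 7 of 11 without that library). COL12A1, a collagen that binds fibril surfaces, averaged 439 ± 72.3 CPM with TGFb and 3.73 ± 0.993 CPM untreated in MDCK-II (adjusted p = 0.000147). THBS1, a matrix glycoprotein, and TNXB, a fibril-binding tenascin, rose there by 3.49 ± 0.59 (adjusted p = 0.000683) and 2.39 ± 0.37 (adjusted p = 0.000348). COL12A1 (2.28 ± 0.76, adjusted p = 0.0201) and THBS1 (1.47 ± 0.55, adjusted p = 0.0363) also rose in MDCK-NBL2. TNXB did not pass in that subline (adjusted p = 0.792), but did without the library that stood apart (0.73, adjusted p = 0.0156). In MDCK-NBL2, COL14A1, a relative of COL12A1, averaged 4.33 ± 1.66 CPM with TGFb and 0.187 ± 0.194 CPM untreated (adjusted p = 8.1e-05), a log2 fold change of 4.31, or 5.93 without the library that stood apart. SPARC, a collagen-binding protein, had 45 counts with TGFb and 4 untreated, all in the library that stood apart (adjusted p = 0.000378). LUM, which encodes lumican, had 42 counts with TGFb and 0 untreated (adjusted p = 0.00255).

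Receptors for fibrillar collagen rose in 5 of 7 tested in MDCK-NBL2 (median 0.96; 6 without the library that stood apart) and 3 of 7 in MDCK-II (median 0.76; 4 without that library, and 6 with the replicate block in a fit of the MDCK-II libraries compared). ITGA1, the collagen-binding integrin alpha 1, averaged 213 ± 12.5 CPM with TGFb and 50.1 ± 33.3 CPM untreated in MDCK-NBL2 (adjusted p = 5.37e-05), and 79.4 ± 2.28 CPM and 21.4 ± 6.24 CPM in MDCK-II (adjusted p = 0.000368). MRC2, which takes up collagen for breakdown, rose by 1.56 ± 0.30 (adjusted p = 0.000538) and 1.76 ± 0.32 (adjusted p = 0.00125) in that order. Without the library that stood apart the rises in MDCK-NBL2 were 2.79 for ITGA1 and 2.17 for MRC2. ITGA2 rose in both sublines, by 0.88 ± 0.23 in MDCK-NBL2 (adjusted p = 0.00457) and 0.76 ± 0.23 in MDCK-II (adjusted p = 0.0243). ITGB1 rose in MDCK-NBL2 (0.99 ± 0.21, adjusted p = 0.00117). In MDCK-II it did not pass (0.45 ± 0.21, adjusted p = 0.133), but did without the library that stood apart (adjusted p = 0.0159).

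Enzymes that cut fibrillar collagen ran differently: 0 of 4 tested were called in MDCK-NBL2 (median 0.71; 2 rose without the library that stood apart) and 4 of 4 rose in MDCK-II (median 2.79). MMP13, a collagenase, averaged 1177 ± 483 CPM with TGFb and 3.26 ± 2.14 CPM untreated in MDCK-II (adjusted p = 0.000273). CTSK, a lysosomal collagen-degrading protease, rose by 1.93 ± 0.50 (adjusted p = 0.0108), MMP9, a gelatinase, by 3.66 ± 1.06 (adjusted p = 0.0201) and the membrane-bound MMP14 by 1.39 ± 0.47 (adjusted p = 0.0421). In MDCK-NBL2, MMP13 (4.33, adjusted p = 0.000889) and MMP14 (1.32, adjusted p = 0.0221) were those that rose without the library that stood apart. In the interaction test MMP13 alone of these 4 passed, with a smaller response in MDCK-NBL2 (-7.97 ± 1.50, adjusted p = 0.00627).

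Of the TGFb pathway itself, 5 of 15 tested rose and 2 fell in MDCK-NBL2 (median 0.64; 11 rose and 2 fell without the library that stood apart), the receptor TGFBR2 (-0.78 ± 0.24, adjusted p = 0.0137) and the signal carrier SMAD3 (-0.77 ± 0.23, adjusted p = 0.0109), and in MDCK-II 6 rose and none fell (median 1.08, or 1.25 with genes of few counts at their bound; 7 rose without that library). TGFB2, a ligand, rose by 0.84 ± 0.21 in MDCK-NBL2 (adjusted p = 0.00343) and 2.24 ± 0.22 in MDCK-II (adjusted p = 4.19e-06). LTBP1 and LTBP2, which hold latent TGFb in the matrix, rose in MDCK-NBL2 by 1.27 ± 0.35 (adjusted p = 0.00679) and 4.67 ± 0.64 (adjusted p = 6.07e-05), or by 2.31 and 6.61 without the library that stood apart. In MDCK-II LTBP1 rose by 1.69 ± 0.36 (adjusted p = 0.00325), and LTBP2 did not pass (adjusted p = 0.7). The feedback inhibitors SMAD7 (3.38 ± 0.51, adjusted p = 0.000277) and PMEPA1 (2.97 ± 0.40, adjusted p = 0.000121) rose in MDCK-II. In MDCK-NBL2 SMAD7 (0.99 ± 0.44, adjusted p = 0.0754) and PMEPA1 (0.87 ± 0.38, adjusted p = 0.0671) did not pass with all libraries. Without the library that stood apart both rose there, SMAD7 by 2.41 (adjusted p = 2.5e-08) and PMEPA1 by 2.04 (adjusted p = 6.11e-09). With siPRRX1, CRTAP was the 1 gene called of 67 tested in all these lists. Without the library that stood apart 7 of 68 were lower and 2 higher, LOXL1 (0.52, adjusted p = 0.0182) and TGFBR1, a TGFb receptor (0.62, adjusted p = 0.0145). With the replicate block 2 of 67 were lower in the fit of all libraries, and 27 of 63 were lower and 8 higher in the fit of the siPRRX1 and siCTR libraries alone.

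**Figure D5:**
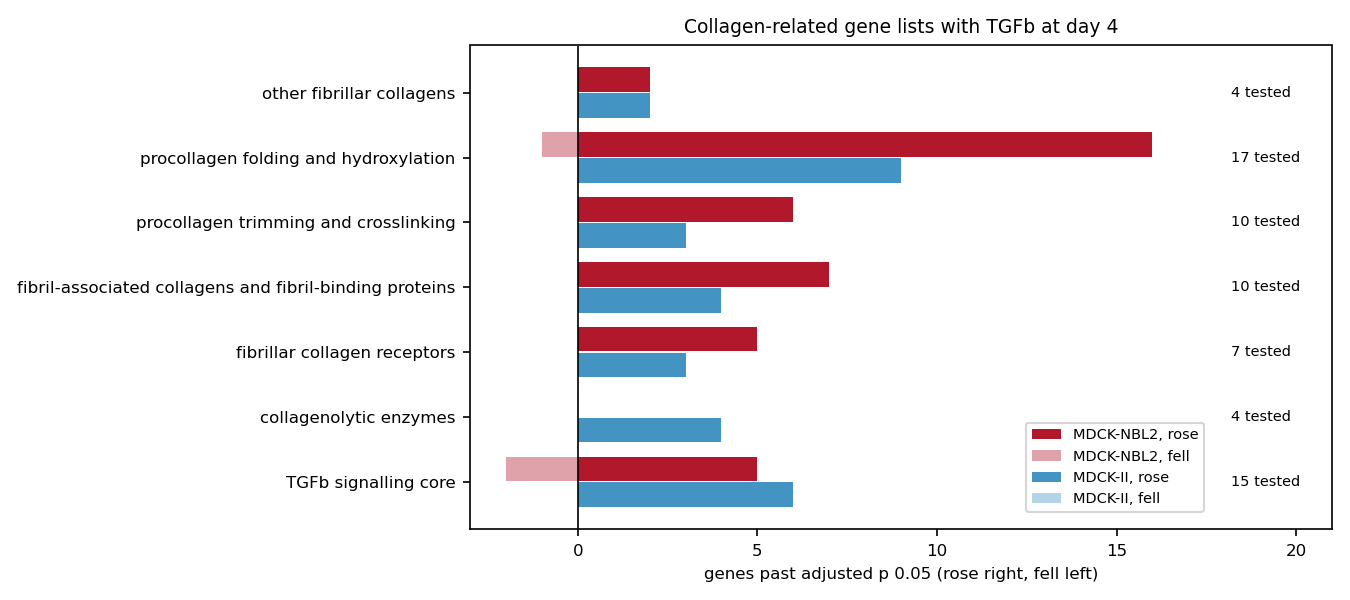
Number of genes per collagen-related list past an adjusted p of 0.05 with TGFb at day 4, rising to the right and falling to the left, with all libraries, in MDCK-NBL2 (upper bars) and MDCK-II (lower bars), beside the number tested. Procollagen folding genes rose in 16 of 17 in MDCK-NBL2, and collagenolytic enzymes in 0 of 4 in MDCK-NBL2 and 4 of 4 in MDCK-II.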

How the data were processed

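Stranded mRNA libraries of MDCK cells were analysed from the counts per gene deposited by the authors, whole numbers with no normalization. Per the submitters' processing notes, STAR 2.5.3a, RSEM 1.3.0, FastQC and the dog build CanFam3.1 were used; the role of each, the annotation and the strand setting are not stated in the labels or notes used. All 24 columns matched a labelled sample, with totals of 6134929 to 27567296 counts, and 0 were left unmapped. The TGFb dose is left out because its printed unit is doubtful.

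A quasi-likelihood model (edgeR 4.0.16, R 4.3.3) with TMM scaling estimated a mean for each group from all libraries together. filterByExpr (minimum count 10, minimum total 15) left 12466 genes. The common biological coefficient of variation was 21.9%, with 16 residual degrees of freedom and a prior count of 0.125. P-values were adjusted by Benjamini-Hochberg over all tested genes, called under 0.05. The SE is the log2 fold change divided by the square root of the F statistic. Folds against 0 counts are lower bounds against 3 counts over the group, and ratios over 1 to 3 counts have exact 95% intervals; both cover counting error only. The code was tested on simulated data.

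Replicate numbers were taken to pair libraries where the correlation of deviations exceeded 0.1 for each number: siPRRX1 with siCTR (0.343, 0.189 and 0.164) and TGFb with untreated MDCK-II (0.421, 0.251 and 0.295), not the other comparisons. Members and lists were chosen with earlier results of these data known. The text names all members, at most 3 called genes of each list, those of lowest adjusted p, in the TGFb and siPRRX1 comparisons, and the 3 genes most correlated with each member; COL5A3, COL2A1, P4HA3, MMP14, TGFBR2, SMAD3, TGFBR1, PLOD1, PLOD2 and TGFBI were named after their values were seen. Alternatives were DESeq2 1.42.0 size factors and its Wald test, no filter, only the groups compared, a replicate block, a term for the library number series, and leaving out each library. A few genes that these rules select are not reported here, although counts over lists and over all genes include them. Sequences were not used here, and gene positions only to find which protein-coding genes are adjacent.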

Additional observations from a re-analysis of the deposited data

Results flagged for a closer look

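None of the 6 tested fibrillar collagens passed the interaction test of the TGFb response between the sublines, and 11 genes of the collagen-related lists that are named here did (edgeR's quasi-likelihood test, log2 difference of MDCK-NBL2 minus MDCK-II, Benjamini-Hochberg adjusted over all genes). The test could not decide for the type I and type III chains. COL1A2 and COL3A1 had no MDCK-II count, and COL1A1, near 0 there, had a difference of 0.66 ± 10.65. A larger response in MDCK-NBL2 was found for TLL2, a procollagen C-proteinase relative (3.23 ± 0.84, adjusted p = 0.0305), its enhancer relative PCOLCE2 (1.66 ± 0.41, adjusted p = 0.0256) and the export factor MIA3 (0.95 ± 0.18, adjusted p = 0.0068). A smaller response in MDCK-NBL2 was found for the collagenase MMP13 (-7.97 ± 1.50, adjusted p = 0.00627), for COL12A1 (-4.59 ± 1.10, adjusted p = 0.0218) and TNXB (-2.51 ± 0.51, adjusted p = 0.00907), which bind fibrils, and for the crosslinker LOXL1 (-1.21 ± 0.24, adjusted p = 0.0081). In the TGFb pathway the same held for TGFB2 (-1.40 ± 0.30), SMAD3 (-1.30 ± 0.32), SMAD7 (-2.40 ± 0.66) and PMEPA1 (-2.10 ± 0.54), the adjusted p running from 0.0115 to 0.0408. The untreated MDCK-NBL2 library that stood apart enters all these values. Without it, the difference moved to -4.15 for MMP13, -1.92 for COL12A1, -1.65 for TNXB, -0.98 for SMAD7 and -0.93 for PMEPA1, and all 11 still passed in the same direction. The balance of directions turned round, however: with all libraries 3 of the 11 had a larger response in MDCK-NBL2 and 8 a smaller one, and without that library 29 genes of the lists passed, 20 with a larger response in MDCK-NBL2 and 9 with a smaller one. Of the 18 genes that passed only then, 17 had a larger response in MDCK-NBL2, among them ADAMTS2 (5.42, adjusted p = 0.000221), PLOD2 (2.41, adjusted p = 0.00082) and PLOD1 (1.27, adjusted p = 0.000325), which act on procollagen.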

How the results depend on the processing

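Over the members' log2 fold changes, 613 alternatives kept direction and side of the threshold, 18 lost a call, 36 gained one and 14 reversed, and the cause of the other shifts was not tested. In fits of only the groups compared, members called and genes called were 1 and 510 for TGFb in MDCK-NBL2 (1 and 40 with the replicate block), 3 and 1159 for siPRRX1 (6 and 2528 with it), and 0 and 0 for day 4 in MDCK-NBL2 (0 and 0 with it). In the same fits genes called for the response difference were 48 (49 with the block), members called for day 4 in MDCK-II were 2 (0 with the block, beside 496 genes) and for the lines at day 0 were 2 (2 with it). A block over all libraries called 1 member for siPRRX1, 2 for day 4 in MDCK-II and 2 for the lines at day 0. In MDCK-NBL2 day 4 that block took COL1A1 to an adjusted p of 0.0623 and COL3A1 (-3.91) to 0.00745. For TGFb in MDCK-II and for siPRRX1, whose numbers were taken to pair, the block changed no member's call beyond those given with the results. The DESeq2 Wald test called 1188 genes for the response difference, 472 for siPRRX1, 2 members for day 4 in MDCK-II and 4 for the lines at day 0, and without the low-count filter 163 genes were called for siPRRX1.

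Leaving out 1 library at a time, genes called ran from 1257 to 3862 for TGFb in MDCK-II, 311 to 2653 for the response difference, 54 to 655 for siPRRX1, 509 to 2075 for day 4 in MDCK-II and 729 to 5324 for day 4 in MDCK-NBL2. Members called ran from 0 to 1 for the response difference, 0 to 1 for siPRRX1, 0 to 2 for day 4 in MDCK-II, 0 to 3 for day 4 in MDCK-NBL2 and 1 to 3 for the lines at day 0. Log2 fold changes ran from -1.70 to 15.12 for the response difference of COL1A1, -0.18 to 0.55 for COL27A1 at day 4 in MDCK-II, and, at day 4 in MDCK-NBL2, -7.15 to 10.72 for COL1A1, -0.46 to 2.78 for COL1A2, -6.55 to 0.73 for COL3A1 and -0.075 to 1.04 for COL5A1. COL5A2 between the lines under TGFb ran from -0.17 to 0.082, and was -0.0054 with DESeq2 size factors, -0.0054 by the DESeq2 Wald test, -0.025 without the filter and -0.0067 with only the groups compared.

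COL11A1 and, in MDCK-II, COL1A2 and COL3A1 lay under the floor, so that changes within it were not detectable. COL1A1 in MDCK-II rested on 12 counts with TGFb and 2 untreated, and its ratio is known only within the wide interval given.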

Other observations

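In every MDCK-NBL2 group other than untreated day 4, replicate 1 had the most COL3A1 and the most PRRX1. With TGFb alone, replicates 1, 2 and 3 had 37.2, 8.89 and 5.71 CPM of PRRX1 beside 104, 6.33 and 12.0 CPM of COL3A1. With siCTR they had 33.9, 7.35 and 3.88 CPM of PRRX1 beside 97.5, 6.39 and 10.7 CPM of COL3A1, and at day 0 they had 7.07, 0.661 and 0.404 CPM beside 2.49, 0.0331 and 0 CPM. With TGFb alone and with siCTR, replicates 2 and 3 stood in opposite orders for these genes, and at day 0 in the same order. The untreated day 4 library that stood apart had 3.25 CPM of PRRX1, and no COL3A1 count. It also had 1583 CPM of TGFBI, a TGFb-induced matrix gene, against 0.325 and 0.229 CPM in the other untreated day 4 libraries, and 7495 to 9515 CPM with TGFb. No test was made of the relation between PRRX1 and COL3A1, since the libraries fall into separate groups and replicate 1 stands far from the others.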
